A study of Mus musculus with 4 samples.

Results

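The 6 rows described here are the mature arms of the mouse hairpins miR-28a, miR-708 and miR-151, out of 2110 rows of read counts per mature miRNA entry. Named were miR-28a-5p (MIMAT0000653), miR-708-5p (MIMAT0004828), miR-151-5p (MIMAT0004536) and miR-151-3p (MIMAT0000161), and the other arms, miR-28a-3p (MIMAT0004661) and miR-708-3p (MIMAT0003498), were added as the rows on the same chromosome and strand that start within 60 bases. The arms of a hairpin start 35 to 46 bases apart, and the nearest row outside starts 56244 bases away. The members were chosen by identifier and position, but the family was proposed with the damaged and WT values of these libraries known. Its levels, fold changes and adjusted p-values are therefore a description and support nothing by themselves. Small RNA was sequenced from extracellular vesicles, the membrane particles that cells release, of C2C12, an established mouse myoblast line grown in fetal bovine serum. The damaged group (2 libraries) was treated with hydrogen peroxide, at a dose and time the labels do not give. The WT group (2 libraries) carries the treatment label WT. The genotype label is WT in all 4 libraries, and both groups come from a single cell line. The series set out to compare the miRNA cargo of vesicles from healthy and damaged muscle cells.

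A miRNA guides silencing proteins to messenger RNAs mainly through its seed, bases 2 to 8 from its 5′ end. Each hairpin is cut into a 5p and a 3p arm, and the arm that is kept differs between hairpins and cells. miR-28 and miR-151 descend from copies of an old interspersed repeat. miR-28 and miR-708 are studied for effects on cell growth and migration in tumours, and miR-151 for promoting the spread of liver tumour cells together with its host gene in human.

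The sequences below, from RefSeq (GRCm38.p6), show which arms share a seed, in capitals, and miR-28b shows how a shift of the 5′ end changes it.
miR-28a-5p: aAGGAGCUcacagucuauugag
miR-708-5p: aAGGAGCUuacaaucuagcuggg
miR-28a-3p: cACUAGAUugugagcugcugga
miR-708-3p: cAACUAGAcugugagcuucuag
miR-28b: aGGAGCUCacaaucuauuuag
The 5p arms of miR-28a and miR-708 hold the same seed, and no other of the 1679 mature miRNA names in the RefSeq table used here has it. They are identical at 16 of 22 bases. The 3p arms have different seeds. Compared base for base they match at 2 of 22 positions, and with miR-708-3p read from its second base at 17 of 21, so these arms are alike but start 1 base apart. miR-28b matches miR-28a-5p, read from its second base, at 19 of 21 positions, and its seed is therefore another. Among these 2 hairpins the shared seed of the family name was thus found for the 5p arms but not for the 3p arms, and the arms of miR-151 were not compared here.

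All 3 hairpins lie in introns of genes linked to cell contact on mm10. miR-28a-5p (chr16:24827868-24827889) and miR-28a-3p (chr16:24827908-24827929) lie on the plus strand in Lpp, which encodes a LIM domain protein of focal adhesions. miR-708-5p (chr7:96249450-96249472) and miR-708-3p (chr7:96249496-96249517) lie on the plus strand in Tenm4, a teneurin of the cell surface. miR-151-5p (chr15:73254855-73254875) and miR-151-3p (chr15:73254820-73254840) lie on the minus strand in Ptk2, which encodes focal adhesion kinase. The long non-coding gene 1700085D07Rik runs over miR-151 on the opposite strand, with no exon there, and counting did not use strand. Each of the 6 identifiers has 1 row, none of them shares bases with another row, and none overlaps an annotated exon of another gene.

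The damaged libraries held 6901394 and 7350345 counts and the WT libraries 4577668 and 7638663. The markers of skeletal muscle took 37.0% ± 1.81 of counts in damaged vesicles and 31.6% ± 2.79 in WT vesicles (SD, n = 2), led by miR-206-3p. Among their 9 rows, 2 stood at 0 in all libraries, a copy of miR-1a-3p and miR-486a-5p, and both share bases with an opposite-strand entry. Markers of other sources were few: blood and liver markers took 0.148% to 0.155% in damaged and 0.152% to 0.172% in WT vesicles, with miR-451a-5p as nearly all of it. Among the 7 blood and liver rows, 2 stood at 0, and both share bases with another entry. Epithelial markers held 22 to 84 counts in damaged and 4 to 24 in WT libraries. Neural markers held at most 1 count in a library, and the endothelial ones 0. Of the 9 neural rows, 7 stood at 0, and 5 of those 7 and both endothelial rows share bases with an opposite-strand entry. Suspected fragments of other RNA took 0.676% and 0.724% of counts in the damaged libraries and 0.215% and 0.320% in the WT libraries, and the part of this difference in the values below was not tested. Nothing in the labels says whether replicates are separate cultures, and a p-value here reflects library-to-library spread that may be technical. In a pool of vesicles, fewer vesicles with a miRNA and fewer copies per vesicle cannot be told apart.

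The family was a small part of the cargo and was carried mostly by miR-151. Together the 6 rows took 0.201% of counts in damaged replicate 1 (exact 95% interval 0.198 to 0.204) and 0.257% in damaged replicate 2 (0.253 to 0.261), against 0.301% in WT replicate 1 (0.296 to 0.307) and 0.276% in WT replicate 2 (0.272 to 0.279). Both damaged libraries lay below both WT libraries. The share averaged 0.229% ± 0.0395 in damaged and 0.289% ± 0.0182 in WT (SD, n = 2), and an exact two-sided permutation test gave p = 0.333, the smallest that 2 libraries against 2 allow. Leaving out damaged replicate 1 moved the difference from -0.0596 to -0.0317 percentage points. Without the most abundant row in the denominator, the shares were 0.304% and 0.405% in damaged and 0.422% and 0.409% in WT libraries. The intervals of damaged replicate 2 (0.399 to 0.411) and WT replicate 2 (0.404 to 0.415) then overlapped. miR-151-5p alone held 67.6% and 71.7% of the family's counts in the damaged libraries and 72.8% and 72.5% in the WT libraries. The miR-708 hairpin held 5.47% and 3.97% of them in damaged and 2.65% and 3.13% in WT libraries. Intervals cover counting error only, as no molecular identifiers are named.

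Set in order of CPM per base of mature sequence, miR-151-5p came first, at 65.2 to 106 over the 4 libraries, where CPM is the depth-scaled count. The arms are 21 to 23 bases long, so the division by length is only a small rescaling of CPM. By count miR-151-5p ranked 52 and 46 among the 2110 rows in the damaged libraries and 40 and 45 in the WT libraries. Next came miR-151-3p at 12.1 to 15.4 and miR-28a-3p at 8.17 to 17.5 CPM per base, whose ranges overlapped, with miR-28a-3p above miR-151-3p in 1 WT library. Below them stood miR-28a-5p at 4.43 to 5.08, miR-708-5p at 2.24 to 2.97 and miR-708-3p at 1.31 to 1.93 CPM per base. Apart from miR-151-3p and miR-28a-3p, no neighbours in this order overlapped. By counted reads, the dominant arm was 5p in miR-151 and miR-708 and 3p in miR-28a, in all 4 libraries. Whether different sequences are turned into reads equally well was not tested, so this order is one of reads.

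No arm of the family differed between damaged and WT vesicles past the threshold. edgeR's quasi-likelihood test with Benjamini-Hochberg adjustment at 0.05 called 0 of the 6 rows, where 51 of 536 tested rows, or 9.51%, were called, 22 higher and 29 lower. At an unadjusted p below 0.05 there was 1 of the 6, beside 165 of 536 rows or 30.8%. DESeq2 and limma-voom each called 1 of the 6, miR-28a-3p, beside 19.8% of all rows with DESeq2 and 14.7% with limma-voom. That background depends on the libraries kept. Dropping WT replicate 1, WT replicate 2 or damaged replicate 1 left edgeR with 0 called rows (103 to 144 at unadjusted p below 0.05), and dropping damaged replicate 2 left 30. In CPM, 3 of the 6 rows had both damaged libraries above both WT libraries, which 29.1% of tested rows had, and 2 had both below, which 30.8% had. In all, 5 of the 6 rows did not overlap between the groups, beside 59.9% of all tested rows, and nothing is read from so few rows. The median log2 fold change was 0.10 over the 6 rows and 0.02 over all 536.

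**Figure D1:**
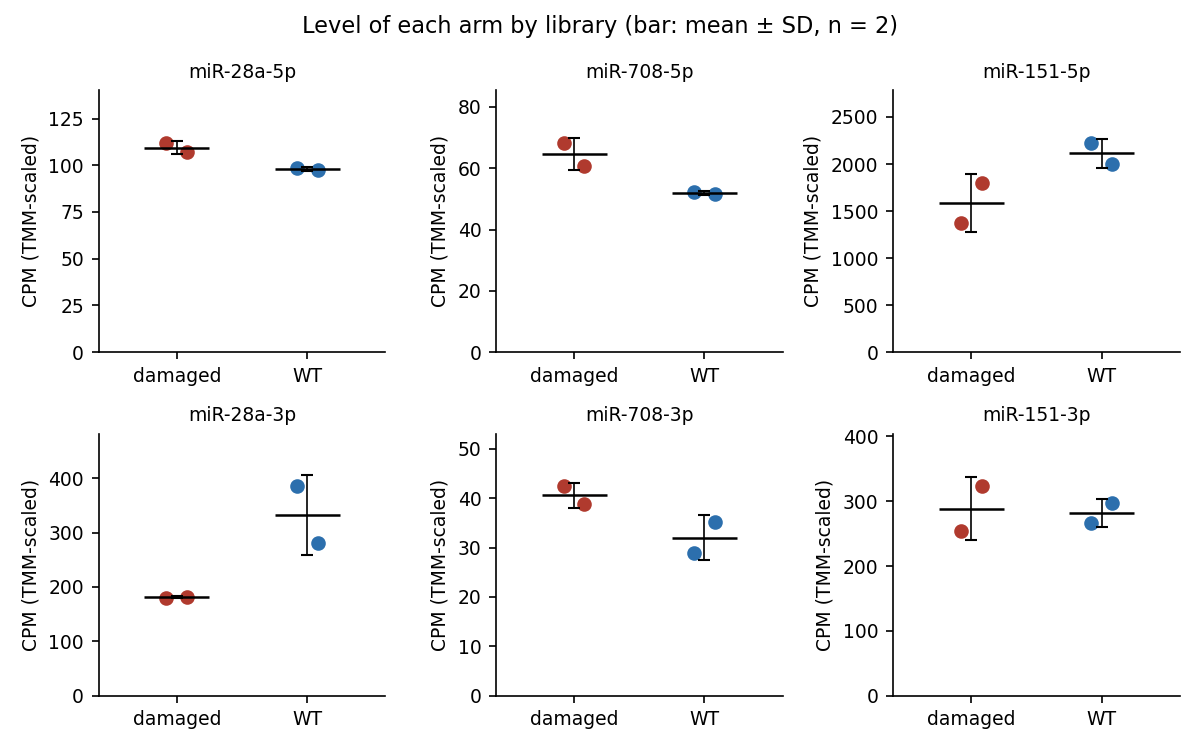
TMM-scaled CPM of each arm (vertical axes, from 0) in the 2 damaged libraries (left, red) and the 2 WT libraries (right, blue), with the mean and SD of each group in black. miR-28a-3p stands at 179.7 and 182 CPM in damaged against 385 and 281 CPM in WT libraries, while the values of miR-151-3p overlap.

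miR-28a-3p, the more abundant arm of its hairpin, had the largest fold change of the 6. It had 1232 and 1368 counts in the damaged libraries and 1739 and 2137 in the WT libraries. Scaled, these were 179.7 and 182 CPM in damaged and 385 and 281 CPM in WT libraries. The damaged libraries lay close together and below both WT libraries, which themselves stood far apart. Its mean was 181 ± 1.57 CPM in damaged and 333 ± 73.9 CPM in WT vesicles (SD, n = 2). The log2 fold change was -0.88, with an SE of 0.20, and edgeR gave adjusted p = 0.0531. This row sits at the threshold: it passed in 9 of 12 other settings on the 4 libraries (adjusted p from 0.000366 to 0.054 and log2 fold change from -0.96 to -0.83 over the 12), and in none of the 4 that left out a library (0.126 to 0.222).

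miR-28a-5p, which holds the seed shared with miR-708-5p, did not have the lower damaged values of its partner arm. The shift between these 2 arms, described below, was not called (adjusted p = 0.187 in a limma fit). miR-28a-5p had 767 and 801 counts in damaged and 446 and 742 in WT libraries, which are 112 and 107 CPM in damaged and 98.7 and 97.4 CPM in WT libraries. The damaged values were slightly above the WT values without overlap. The means were 109 ± 3.79 CPM in damaged and 98.1 ± 0.937 CPM in WT (SD, n = 2), and the log2 fold change was 0.15 ± 0.17 (SE), for which edgeR gave adjusted p = 0.594.

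miR-708-5p, the other arm with that seed, had higher values in damaged vesicles and did not pass the threshold. It had 468 and 458 counts in damaged and 236 and 392 in WT libraries, or 68.3 and 60.9 CPM in damaged and 52.3 and 51.5 CPM in WT libraries. These groups did not overlap. The log2 fold change was 0.32 ± 0.20 (SE), for which edgeR gave adjusted p = 0.337. miR-708-3p, the rarest arm, had 291 and 292 counts in damaged and 130 and 268 in WT libraries. In CPM these were 42.4 and 38.8 in damaged and 28.8 and 35.2 in WT libraries, again without overlap, with a log2 fold change of 0.34 ± 0.24 (SE), for which edgeR gave adjusted p = 0.400. Together, the arms with the shared seed reached 174 ± 8.99 CPM in damaged and 150 ± 1.49 CPM in WT vesicles (SD, n = 2), of which miR-28a-5p made up 62.9% ± 1.07 in damaged and 65.4% ± 0.0256 in WT.

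miR-151-5p, the most abundant arm, had 9381 and 13534 counts in damaged and 10048 and 15260 in WT libraries. This came to 1368 and 1800 CPM in damaged and 2225 and 2004 CPM in WT libraries. Both damaged libraries lay below the WT libraries, and they differed from each other by more than the WT libraries did. The means were 1584 ± 305 CPM in damaged and 2114 ± 156 CPM in WT (SD, n = 2), with a log2 fold change of -0.42 ± 0.17 (SE), for which edgeR gave adjusted p = 0.169. miR-151-3p had 1740 and 2432 counts in damaged and 1201 and 2263 in WT libraries, or 254 and 323 CPM in damaged and 266 and 297 CPM in WT libraries. The WT values lay within the range of the damaged values. The fitted log2 fold change was 0.04 ± 0.18 (SE), for which edgeR gave adjusted p = 0.938, and the sign turned in 5 other settings, among them upper quartile scaling (-0.03) and the correction for GC content (-0.05).

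**Figure D2:**
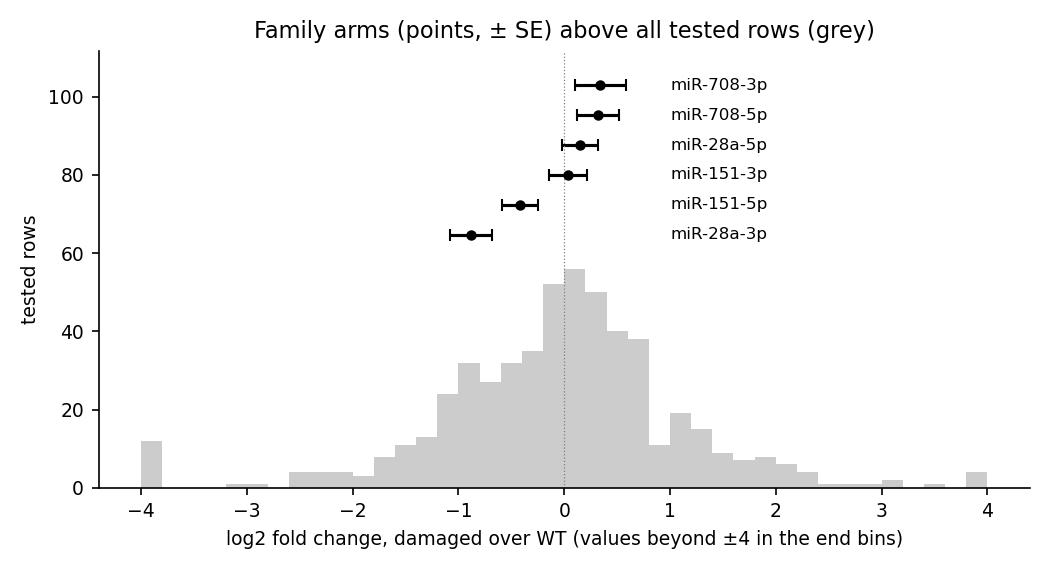
Log2 fold change, damaged over WT, of the 6 arms (points with SE, at arbitrary heights) above a histogram of the 536 tested rows (grey, vertical axis: number of rows). The arms run from -0.88 for miR-28a-3p to 0.34 for miR-708-3p, all within the body of the histogram.

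The ratio of the arms within a hairpin does not depend on library size or scaling. In miR-28a, 5p reads made up 38.4% of both arms in damaged replicate 1 (exact 95% interval 36.2 to 40.5) and 36.9% in damaged replicate 2 (34.9 to 39.0), against 20.4% in WT replicate 1 (18.7 to 22.2) and 25.8% in WT replicate 2 (24.2 to 27.4). The intervals of the damaged libraries overlapped, and both stood above both WT libraries, which differed from each other. In miR-151 the order was the opposite, with 84.4% (83.7 to 85.0) and 84.8% (84.2 to 85.3) of reads from the 5p arm in damaged and 89.3% (88.7 to 89.9) and 87.1% (86.6 to 87.6) in WT libraries. In miR-708 the groups overlapped, at 61.7% (58.1 to 65.1) and 61.1% (57.5 to 64.6) in damaged and 64.5% (59.3 to 69.4) and 59.4% (55.5 to 63.2) in WT libraries.

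**Figure D3:**
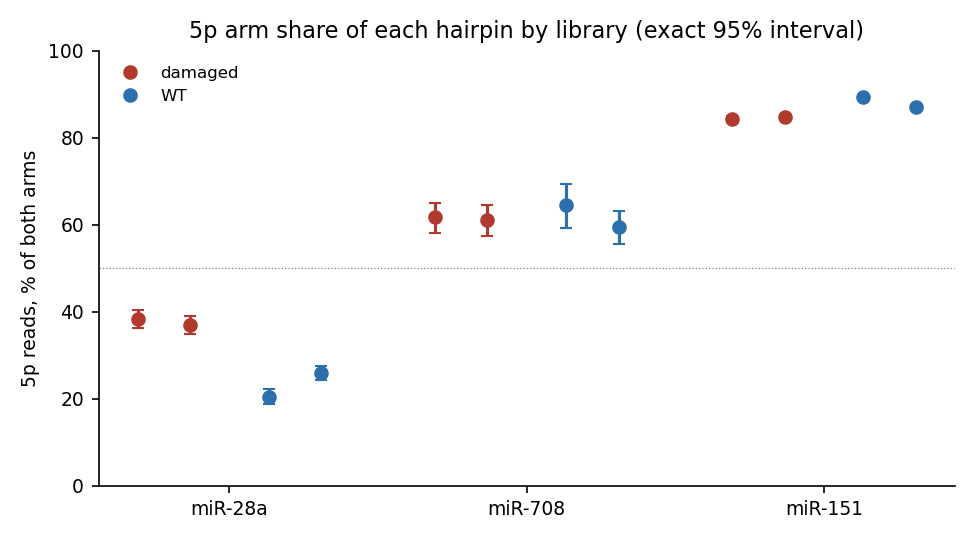
Share of 5p reads among the reads of both arms (vertical axis, percent) for each hairpin in the damaged libraries (red) and the WT libraries (blue), with exact 95% binomial intervals. miR-28a lies at 36.9% to 38.4% in damaged against 20.4% to 25.8% in WT libraries, and the dotted line marks equal arms.

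On the log2 scale the ratio of 5p to 3p counts, with 0.5 added to each, was -0.73 ± 0.063 in damaged and -1.74 ± 0.31 in WT vesicles for miR-28a (SD, n = 2). The shift of 1.02 ± 0.26 (SE) means that 5p reads per 3p read were 2.02 times as many in damaged as in WT libraries. For miR-151 the ratio was 2.45 ± 0.032 in damaged and 2.91 ± 0.22 in WT (SD, n = 2), a shift of -0.46 ± 0.18 (SE). For miR-708 it was 0.67 ± 0.026 in damaged and 0.70 ± 0.22 in WT, a shift of -0.04 ± 0.34 (SE). Exact two-sided permutation tests gave p = 0.333 for miR-28a and miR-151, the smallest the design allows, and p = 1.0 for miR-708. A limma fit of the ratio across the 152 hairpins with both arms tested, chosen after seeing the data, called none of the 3 (adjusted p = 0.187 for miR-28a, 0.287 for miR-151 and 0.956 for miR-708).

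Such shifts were common over the table. The limma fit called 1 of 152 hairpins, or 0.658%, which was let-7d (shift -1.51, adjusted p = 0.0377), named after its value was seen. In 51.3% of the 152 hairpins the arm ratios of the groups did not overlap, as in 2 of the 3 hairpins here. The ratio was higher in both damaged libraries than in both WT libraries in 23.7% of hairpins, miR-28a among them, and lower in 27.6%, miR-151 among them. The size of the miR-28a shift ranked 61 among the 152 and that of miR-151 102, and 62 hairpins had a shift of at least 1 in size. The median shift was -0.18, with quartiles of -1.04 and 0.48.

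**Figure D4:**
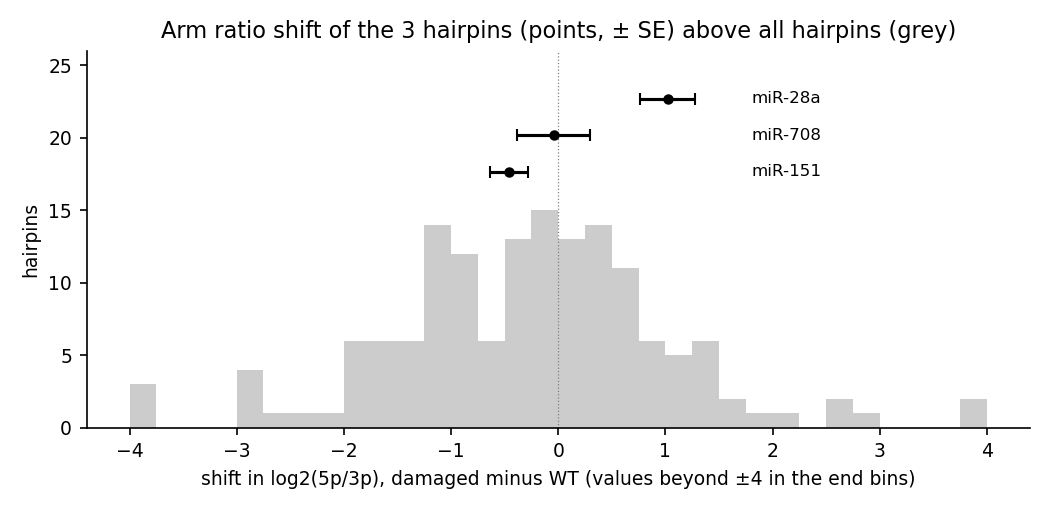
Shift of the log2 ratio of 5p to 3p counts, damaged minus WT, of the 3 hairpins (points with SE, at arbitrary heights) above a histogram of 152 hairpins (grey, vertical axis: number of hairpins). miR-28a stands at 1.02, miR-708 at -0.04 and miR-151 at -0.46, all inside the histogram.

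The arms of miR-28a and miR-708 can also be set against each other within a library. miR-28a-3p had 4.23 and 4.68 counts per count of miR-708-3p in damaged libraries and 13.4 and 7.97 in WT libraries. For the 5p arms with the shared seed the ratio was 1.64 and 1.75 in damaged and 1.89 in each WT library. Both ratios were lower in the damaged libraries without overlap, and each exact permutation test gave p = 0.333, the smallest the design allows. For the 3p arms this order follows from the CPM values above, where miR-28a-3p was lower and miR-708-3p higher without overlap. It is therefore no further observation. How often other pairs of rows separate in this way was not counted.

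The related entries miR-28b and miR-28c were nearly absent. miR-28b had 0 counts in all 4 libraries, which allows up to 0.435 and 0.408 CPM in damaged and 0.655 and 0.393 CPM in WT libraries at a floor of 3 counts per library. The counted row of miR-28c had 1 and 6 counts in damaged and 0 and 7 in WT libraries. Neither entered the test.

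By the profile over the 4 libraries, miR-151-5p was most like miR-16-5p, a regulator of cell cycle genes, among 155 rows outside the family with at least 100 CPM. Their centred log2 CPM differed by a root mean square of 0.04, and next came miR-196b-5p (0.07), miR-100-5p and miR-878-5p (0.123 each) and miR-98-5p (0.13). None of these 5 passed the edgeR test (adjusted p 0.0642 to 0.197). The distance of miR-151-5p to the other family arms ran from 0.25 for its partner miR-151-3p to 0.46 for miR-708-3p. These are larger, but the 5 rows above were picked as the nearest of 155, so nothing is read from the contrast. Both miR-708 arms also stood below the 100 CPM asked of the outside rows.

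Other miRNAs in introns of protein-coding genes were taken as a textbook list of 44 hairpins, whose host genes and strands were not checked here. The list had 65 tested rows. Of these, edgeR called 0 higher and 8 lower in damaged vesicles, 12.3% in all beside 9.51% of all rows, and 57 did not pass. The 8 rows stand for 6 distinct miRNAs, since miR-199a-3p and miR-218-5p have 2 identical copies each. DESeq2 called 1 higher and 17 lower of the 65, beside 44 higher and 62 lower of all 536 rows (19.8% in either direction). limma-voom called 1 higher and 12 lower, beside 35 higher and 44 lower of all 536 rows (14.7% in either direction). At an unadjusted p below 0.05 edgeR had 2 higher and 19 lower. Of all rows, 30.8% were below it in either direction, a share not split by direction here. The median log2 fold change of the 65 intronic rows was -0.39, beside 0.10 for the 6 family rows and 0.02 for all tested rows. The smallest p-values belonged to miR-15b-5p, a regulator of cell survival and division (370.1 ± 2.58 CPM in damaged and 1060.3 ± 35.1 CPM in WT, SD, n = 2; adjusted p = 0.00914 by edgeR), and miR-7a-5p (log2 fold change -1.48, adjusted p = 0.00914 by edgeR). On the other side, miR-23b-3p was at 1.44 times and miR-30e-5p at 2.29 times its WT level (adjusted p = 0.0669 and 0.104 by edgeR). The most abundant, miR-27b-3p and miR-378a-3p, had log2 fold changes of -0.42 and -0.03 (adjusted p = 0.124 and 0.949 by edgeR).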

How the data were processed

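The deposited table gives raw counts of reads for each mature miRNA entry in the 4 libraries. Per the submitters' processing notes, the authors used FastQC, BWA and featureCounts with build mm10, and per the file headers featureCounts 2.0.1 ran with no strand option. The sources used here give neither the BWA version nor the trimming or the miRBase release. Rows were named by position, from RefSeq where its table had them (1734 of 2110 rows) and otherwise from GENCODE vM21 hairpins. Of the 6 family rows, 4 matched the RefSeq sequence table, those of miR-28a and miR-708. Tests used edgeR 4.0.16 in R 4.3.3 (quasi-likelihood, TMM, rows kept by filterByExpr with min.count 10, and only group in the model). SE is the size of the log2 fold change over the square root of F. limma 3.58.1 and DESeq2 1.42.0 served as alternatives. Scripts were tested on simulated data. The members and lists were chosen with earlier results of these data known. All rows of the 3 hairpins are named. Other rows named are the 5 nearest in profile to the most abundant arm and, of the intronic list, those of smallest p and highest CPM.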

Additional observations from a re-analysis of the deposited data

How the results depend on the processing

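The count of called rows over the whole table moved with the settings: 77 with upper quartile scaling, 131 with no filter, 91 with the filter of at least 10 CPM in 2 libraries, 106 with DESeq2, 79 with limma-voom, and 0 to 30 when leaving out each replicate, beside 51. With the replicate number as a block it was 127, and 23 with the replicate block and the GC correction. Same-numbered libraries did not deviate together (r = 0.00316 over 536 rows, 2 pairs), so the numbers were not taken as a pairing.

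The count of family rows past the threshold, 0, was 1 (miR-28a-3p) with RLE or upper quartile scaling, no filter, the stricter filter, DESeq2, limma-voom, the GC correction or identical copies summed. It was 2 with the replicate block (miR-28a-3p, adjusted p = 0.000366, and miR-151-5p, adjusted p = 0.0173, by edgeR). It was 0 with library totals, robust edgeR, the replicate block with GC correction (miR-28a-3p adjusted p = 0.0532) and each replicate left out. Of all tested rows, 11.8% were called with RLE scaling, 14.4% with upper quartile scaling, 13.1% with no filter and 28.6% with the stricter filter. DESeq2 called 19.8% of them and limma-voom 14.7%. The GC correction gave 6.53%, identical copies summed 10.1% and the replicate block 23.7%. Library totals gave 10.4%, robust edgeR 9.89% and the replicate block with GC correction 4.29%, beside 9.51% in the main fit. What moved the family calls was not tested. Leaving out each replicate gave arm shifts of 0.80 to 1.23 for miR-28a, -0.61 to -0.30 for miR-151 and -0.19 to 0.12 for miR-708, and share differences of -0.0875 to -0.0317 percentage points. The miR-708 arms had the fewest counts of the family, 130 to 468 per library.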
